A study of Mus musculus with 9 samples.

Results

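Kit, Kitl, Ly6a, Cd34, Flt3, Cd48, Vcam1, Spn and Cd47 are 9 genes of the stem cell niche and of the surface phenotype by which hematopoietic stem and progenitor cells (HSPCs) are sorted. They were taken by symbol from the feature lists, where all 9 were found among 32285 mouse genes. They were read in single-cell transcriptomes from a mouse ependymoma model, EP ZFTA-RELA, and from control brain, to ask which cells, hematopoietic or not, hold their transcripts. The 5 tumor mice (genotype NestinCreERT2;Fus1) carried a conditional ZFTA-RELA fusion allele, targeted to Rosa26, driven from Nestin regulatory sequence and linked to luciferase, which the NestinCreERT2 recombinase switches on in embryonic radial glia. The 4 control mice (genotype NestinCreERT2;TdT) carried the same recombinase with a TdTomato reporter and no fusion. All mice were 6 to 8 weeks old. Both the Cre and the fusion depend on Nestin regulatory sequence, so which cells carry the fusion follows Nestin activity. Each library came from 1 sample of brain or tumor, dissected without the choroid plexus, dissociated, cleared of debris on Percoll and sorted after staining with DAPI and an antibody to the erythroid protein Ter119. A labelled CD45 antibody had been injected into the blood shortly before death. The study's methods name a further CD45 antibody in the stain, which the labels do not, and show a sort gate on CD45+ cells without the injected label for such tissues. Of the cells kept here, 33 to 83 per control and 116 to 408 per tumor passed a gate on general leukocyte genes, which is strict, since 97 to 150 per control and 249 to 508 per tumor passed the gate on microglia.

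In bone marrow, Kitl (stem cell factor) is made by endothelial and perivascular cells and signals through the receptor tyrosine kinase Kit on stem cells and mast cells. Mouse HSPCs are sorted as lineage-negative cells with c-Kit (Kit) and Sca-1 (Ly6a), and Cd34, Flt3 and Cd48 then separate stem cells from more committed progenitors. Several of these transcripts are not particular to blood: brain endothelium is known for Ly6a and Cd34, interneurons for Kit, and Vcam1 and Cd47 are widely used in adhesion and in restraint of phagocytosis.

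Promoters of 4 of the genes are shown because the results turn on them. Kit, Kitl and Cd34 were called between tumor and control endothelium, Kit and Kitl not under every alternative. Cd48 was the member that marked immune cells. Each runs from 250 bases before to 50 bases after the transcription start in RefSeq on GRCm38.p6, on the plus strand. Of the 9 members 7 had an entry, and Ly6a and Vcam1 had none. The Kit window lies at chr5:75574737-75575036, the Kitl window at chr10:100015571-100015870, the Cd34 window at chr1:194938571-194938870 and the Cd48 window at chr1:171681742-171682041. Capitals mark matches, on either strand, to 6 motifs searched: an ETS core (CCGGAA), the GATA motif (AGATAA), the RUNX motif (TGTGGT), a kappa B core (GGGANNTTC), an ISRE core (GAAANNGAA) and the TATA motif (TATAAA), of which none contains another.
Kit: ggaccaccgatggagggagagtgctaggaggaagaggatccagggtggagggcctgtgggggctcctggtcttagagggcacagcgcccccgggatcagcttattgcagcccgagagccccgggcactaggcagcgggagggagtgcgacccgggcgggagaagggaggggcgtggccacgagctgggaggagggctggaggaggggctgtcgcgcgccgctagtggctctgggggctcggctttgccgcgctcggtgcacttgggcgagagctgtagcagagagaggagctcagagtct
Kitl: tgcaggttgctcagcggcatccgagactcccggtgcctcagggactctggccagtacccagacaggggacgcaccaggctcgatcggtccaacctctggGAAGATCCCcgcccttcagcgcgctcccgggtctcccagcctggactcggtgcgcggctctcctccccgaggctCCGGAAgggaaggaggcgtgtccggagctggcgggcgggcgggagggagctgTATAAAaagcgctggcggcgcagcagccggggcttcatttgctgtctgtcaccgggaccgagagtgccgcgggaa
Cd34: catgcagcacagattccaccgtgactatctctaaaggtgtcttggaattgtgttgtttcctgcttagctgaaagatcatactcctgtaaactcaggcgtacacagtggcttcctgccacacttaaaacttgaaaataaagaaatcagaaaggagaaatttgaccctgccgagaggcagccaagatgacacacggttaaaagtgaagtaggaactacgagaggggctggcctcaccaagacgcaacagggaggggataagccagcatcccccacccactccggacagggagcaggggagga
Cd48: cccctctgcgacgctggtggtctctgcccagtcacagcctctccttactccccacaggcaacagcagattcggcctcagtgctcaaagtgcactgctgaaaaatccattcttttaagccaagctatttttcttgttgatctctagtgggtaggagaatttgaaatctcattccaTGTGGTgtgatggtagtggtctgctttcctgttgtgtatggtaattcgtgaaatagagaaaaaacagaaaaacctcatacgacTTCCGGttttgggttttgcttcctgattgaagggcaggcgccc
The Kitl window held an ETS core at bases 174 to 179, a kappa B match at bases 100 to 108 and a TATA match at bases 226 to 231, counted from the 5′ end. The Cd48 window held a RUNX match at bases 175 to 180 and an ETS core at bases 258 to 263. The Kit and Cd34 windows held none of the 6. For comparison, 14.9% of 32851 RefSeq promoter windows held the ETS core, 11.2% GATA, 16.8% RUNX, 3.94% the kappa B core, 8.56% the ISRE core and 13.6% TATA. The Kit and Kitl windows were rich in G and C (69.0% and 68.7%), whereas those of Cd34 and Cd48 had 50.0% and 47.3% against a median of 52.7% over all windows. A match describes letters only and was not tested as a site.

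After filtering, 19568 control cells (3987 to 5907 per mouse) and 15745 tumor cells (1577 to 5114 per mouse) were kept, with 5900868 to 37615459 unique molecular identifiers (UMIs, each 1 captured transcript) per library. Cells were gated cell by cell on fixed marker lists that held none of the 9 members. A cell passed a gate with at least 3 of its markers and more of their UMIs than the free RNA of its library would give (Poisson p under 0.0001). Free RNA was read from the 3000 smallest deposited barcodes of each library. Their median was 559 to 1338 UMIs, with a deposited minimum of 468 to 517 UMIs, so they need not be empty droplets. Tumor replicate 3 had 9001 barcodes, fewer than the 10000 considered for cells, so its set overlapped those considered for cells. The trace of free RNA was larger in control than in tumor microglia. There the summed level of 7 of the neuron markers stood at 57.7% to 70.0% of their free RNA level in controls. In tumors it stood at 8.42% to 28.3%. Free RNA levels below are given in full, not scaled to these shares. Neurons were 77.1% of control cells and 11.1% of tumor cells, endothelial cells 0.506% and 4.24%, and microglia 2.61% and 10.8%. In tumors, 33.6% of cells were gated by a UMI of the fusion or of luciferase, sequences with 0 UMIs in the 3 controls in which they were read. Tumor libraries differed in this, with luciferase in 3.09% to 71.3% of cells. All markers of the neuron, microglia, endothelial, astrocyte and oligodendrocyte lists were detected in the cells gated on them. Any pair of the 8 libraries with complete barcode lists shared at most 10 cell barcodes, and at most 0.262% of the smaller library. Levels below are UMIs of a gene per 1000000 UMIs of the same cells (CPM), summed per mouse over at least 20 cells, and every test used 1 value per mouse.

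Over all kept cells, Cd48, Ly6a, Vcam1 and Cd34 were higher in tumor than in control brain, Flt3 was lower, and Kit, Kitl and Cd47 did not pass the test. Cd48 (a signalling lymphocyte activation molecule of leukocytes) stood at 0.773, 1.35, 1.52 and 1.55 CPM in control replicates 1 to 4. It stood at 17.8, 13.6, 35.6, 12.6 and 8.21 CPM in tumor replicates 1 to 5, so every tumor was above every control. Ly6a (Sca-1, a GPI-anchored protein of HSPCs and endothelium) stood at 11.5, 14.7, 17.5 and 10.6 CPM in controls and at 345, 50.0, 831, 32.0 and 28.1 CPM in tumors. All 5 tumors were above the controls, but tumor replicates 1 and 3 were far above the other 3. Vcam1, an adhesion molecule that binds the integrin VLA-4, stood at 7.81, 8.32, 10.7 and 8.28 CPM in controls and 48.6, 80.1, 60.2, 29.8 and 34.5 CPM in tumors. Cd34 (a sialomucin of HSPCs and vessels) stood at 24.0, 23.0, 23.1 and 27.0 CPM in controls and 63.9, 69.7, 89.4, 36.3 and 43.5 CPM in tumors. The groups did not overlap for either gene. Flt3, the receptor of dendritic and multipotent progenitors, was the only 1 of the 5 to go down, from 10.8, 9.91, 15.2 and 14.1 CPM to 4.24, 1.31, 1.46, 0.239 and 0.933 CPM, again without overlap. In the edgeR quasi-likelihood test with Benjamini-Hochberg adjustment, the log2 fold change was 3.92 for Cd48 (SE 0.42, adjusted p = 0.000167), 4.30 for Ly6a (SE 1.03, 0.00563), 2.78 for Vcam1 (SE 0.33, 0.000235) and 1.54 for Cd34 (SE 0.23, 0.000584). Flt3 fell by 2.88 on the log2 scale (SE 0.57, 0.00220).

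Kit stood at 20.1, 22.6, 21.8 and 23.4 CPM in controls and 14.4, 20.8, 9.62, 12.3 and 44.3 CPM in tumors, where replicate 5 was above and replicates 1, 3 and 4 were below every control (log2 fold change 0.18, SE 0.44, edgeR adjusted p = 0.736). Kitl stood at 36.9, 34.3, 41.0 and 35.6 CPM in controls and 36.9, 21.5, 67.1, 21.2 and 27.4 CPM in tumors, where replicate 3 was highest and replicates 2, 4 and 5 were below every control. Its log2 fold change was 0.09 (SE 0.26, edgeR adjusted p = 0.772) and that of Cd47 was -0.13 (SE 0.17, 0.512). With the free RNA of each library subtracted, Cd47 turned to 0.84 and was called higher in tumors (edgeR adjusted p = 0.00712). Spn (CD43, leukosialin of T cells and myeloid cells) had too few counts to be tested, with 0.232, 0.884, 0.381 and 0.145 CPM in controls and 1.02, 0.534, 5.10, 0.319 and 0.249 CPM in tumors. Thus 5 of the 8 members tested were called, 4 higher and 1 lower, where 61.7% of all 17594 genes tested were called, 32.3% higher and 29.4% lower. The share of members called was near that of all genes. The share of all genes whose groups did not overlap is not given, so a lack of overlap, here and below, does not set a member apart. In these sums over all cells, fewer cells of a type and less RNA per cell cannot be told apart.

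**Figure D1:**
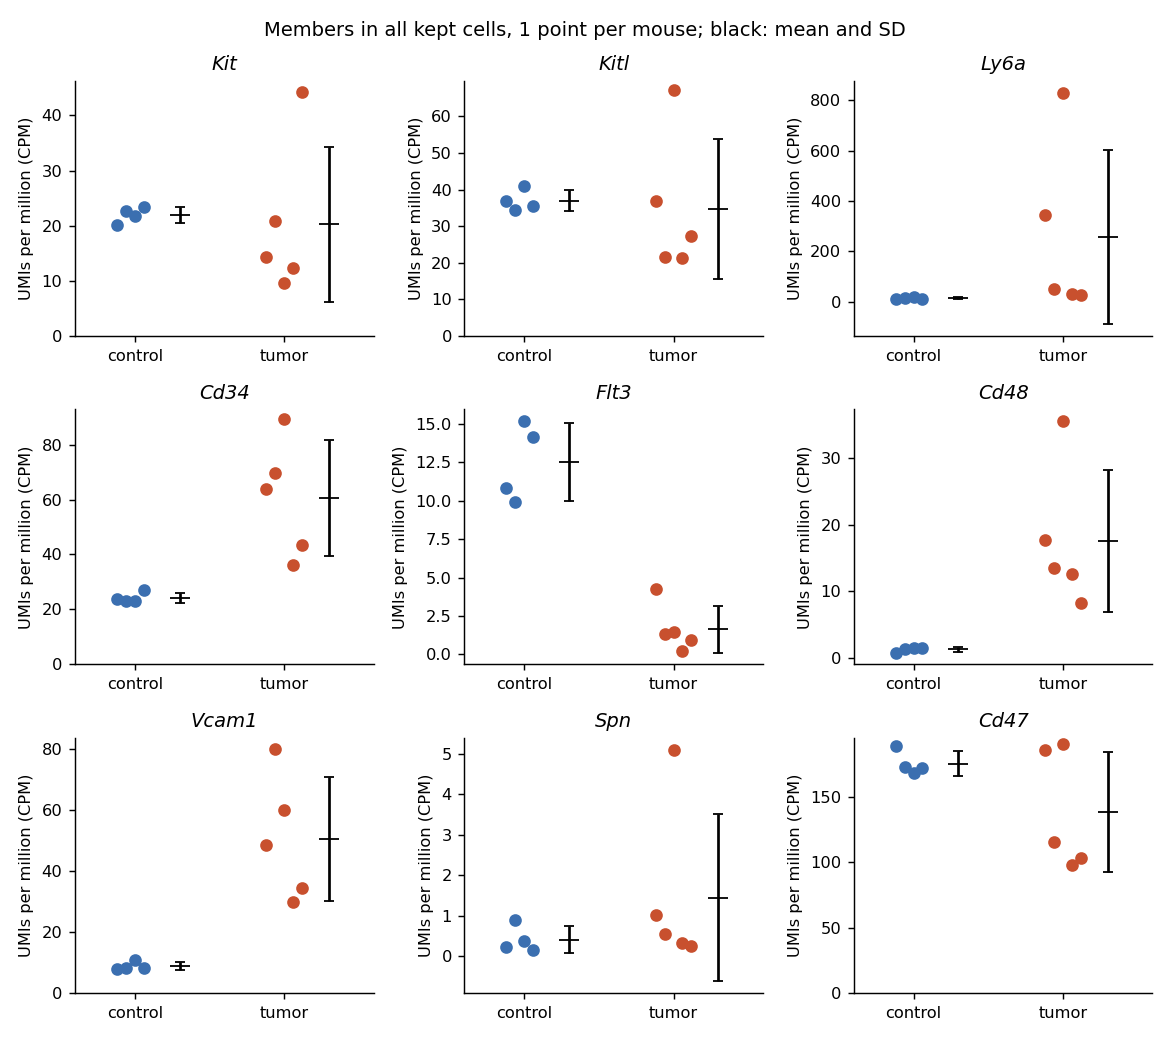
CPM of each of the 9 members over all kept cells, 1 panel per gene, with CPM on the vertical axis, 1 point per mouse, and the mean ± SD of 4 control and 5 tumor mice in black. Tumor points lie above all control points for Cd48, Ly6a, Vcam1 and Cd34 and below them for Flt3, and overlap them for Kit, Kitl and Cd47. The share of all genes with such separation is not given.

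Kit transcripts in control brain came mainly from neurons, which held 84.4% of all Kit UMIs, against 78.1% of all UMIs. In neurons as a whole the level was 21.9, 25.3, 24.4 and 23.9 CPM in controls, above the free RNA level of 18.96, 13.2, 15.6 and 16.1 CPM in each library by a small margin. GABAergic neurons, gated within the neurons on genes such as Gad1 and Gad2, had 20.8, 29.8, 34.4 and 30.4 CPM, and single control neurons held up to 8 Kit UMIs. Glutamatergic neurons had 27.6, 19.7, 20.7 and 15.4 CPM and striatal spiny neurons 18.9, 20.4, 12.5 and 21.5 CPM. Microglia, which should lack Kit, had 17.2, 10.6, 0 and 14.5 CPM in controls and 1.50, 3.96, 0.572, 1.83 and 11.8 CPM in tumors. Neurons were above microglia of the same mouse in 9 of 9 mice, by 0.95 ± 0.51 (SD) in log2(CPM + 10). The exact sign-flip permutation test gave p = 0.00391, the smallest that 9 mice allow, or 0.00608 after Benjamini-Hochberg adjustment over 14 pairs of cell types. In tumor neurons Kit stood at 13.8, 12.1, 22.6, 11.8 and 36.6 CPM, around the controls, and the difference did not pass the test (log2 fold change -0.42, SE 0.30, edgeR adjusted p = 0.409).

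Endothelial cells carried Kit in tumors and hardly in controls. In controls only 4 Kit UMIs were found in 99 endothelial cells, giving 0, 8.36, 8.17 and 16.0 CPM, at or below the free RNA of the same libraries. In tumors 223 Kit UMIs were found in 668 endothelial cells, giving 44.5, 114, 16.7, 66.1 and 114 CPM beside free RNA levels of 20.5, 15.1, 8.92, 18.0 and 30.4 CPM. Every tumor was above every control, although tumor replicate 3 exceeded the highest control by under 1 CPM. The log2 fold change was 3.005 (SE 0.83, edgeR adjusted p = 0.0194), and the call was lost without control replicate 2 (adjusted p = 0.0598) or control replicate 3 (0.0548). Without tumor replicates 1, 2, 4 or 5 in turn Kit fell below the low-count filter and could not be called. Kit thus entered the test only through the tumor libraries, where it was high, which limits what its p-value can show. A Kit UMI was seen in 4.04% of control and 18.4% of tumor endothelial cells, against 3.52% and 1.70% of microglia. The median depth was 3899 and 3450.5 UMIs in endothelial cells and 3451 and 4289.5 UMIs in microglia. After thinning each cell to 1000 UMIs the endothelial shares were 0 of 99 control cells, which allows a share of up to 3.03%, and 7.34% of tumor cells. Endothelium was not alone in this among tumor cells. Fibroblasts held a Kit UMI in 10 of 37 cells (27.0%, and 8.11% after thinning, from 3 cells). Neural progenitors held 1 in 18.0% of 750 cells (3.47% after thinning). Of these 750 cells 503 came from tumor replicate 5, where free RNA of Kit was highest among the tumors. Pericyte and smooth muscle markers moved with this difference, summing to 1813 to 2182 CPM in the endothelial cells of controls and to 17.95 to 1437 CPM in those of tumors, and their part in it was not tested. Among endothelial cells with at most 1 of these markers Kit fell below the low-count filter and was not fitted. It stood there at 0, 20.0, 0 and 17.8 CPM in controls and 45.2, 106, 16.7, 69.8 and 165 CPM in tumors, where replicate 3 lay below the 2 highest controls, each control having 11 to 16 such cells. Within the same mouse, Kit was higher in neurons than in endothelial cells in 4 of 4 controls (by 0.38 to 1.67 in log2(CPM + 10)) and in tumor replicate 3 (by 0.29), and lower in the other 4 tumors (differences of -1.20 to -2.49). The mean over 9 mice, -0.30 ± 1.45, thus joins groups of opposite sign (exact sign-flip permutation p = 0.547, adjusted 0.638).

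In oligodendrocytes Kit was lower in tumors, from few UMIs. They held Kit at 58.4, 55.7 and 22.6 CPM in the 3 controls with enough cells and at 9.35, 7.58, 0, 2.63 and 0 CPM in tumors, without overlap, from 16 and 9 UMIs in all. Control replicate 1, with 16 oligodendrocytes, had no Kit UMI. Free RNA of Kit stood at 18.96, 13.2, 15.6 and 16.1 CPM in controls, and neuron markers moved in the same oligodendrocytes, 10 of 10 having a lower median in tumors (2940 to 3844 CPM summed in controls, 448 to 1034 CPM in tumors). Their part in the difference was not tested. Kit did not pass the low-count filter there and was not tested. Without that filter edgeR called it lower in tumors (log2 fold change -2.67, adjusted p = 0.0157), as did DESeq2 (-3.08, 0.0267). In fusion-allele cells, for which controls have no counterpart, Kit stood at 20.5, 21.5, 16.0, 10.9 and 50.7 CPM, so replicate 5 was apart from the other 4. Free RNA of Kit in the same libraries stood at 20.5, 15.1, 8.92, 18.0 and 30.4 CPM, about equal to the fusion-allele level in replicate 1, above it in replicate 4 and below it in replicates 2, 3 and 5. This was above the level over all kept cells of the same mouse in 4 of 5 tumors and below it in replicate 4. Summed over mice, these cells held 41.0% of tumor Kit UMIs and 46.2% of all tumor UMIs, with more of both from replicate 4 than from any other mouse. In replicate 5, cells gated on neural progenitor genes such as Dcx and Dlx2 had 65.8 CPM of Kit, against 4.32 to 41.4 CPM in the other tumors. A UMI of Kit was seen in 10.6% of fusion-allele cells at a median of 6431 UMIs, and in 2.25% after thinning to 1000 UMIs, against 0.761% of tumor microglia after the same thinning. Of the 5297 fusion-allele cells 3434 came from replicate 4, where the level was below free RNA.

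Kitl, the Kit ligand, was high in endothelial cells of both groups and lower in those of tumors. It stood at 364, 409.7, 531 and 496 CPM in control and at 249.9, 149, 339.8, 289 and 204 CPM in tumor endothelium, every tumor below every control. The log2 fold change was -0.79 (SE 0.25, edgeR adjusted p = 0.0329). The call was lost without control replicates 2, 3 or 4 in turn (adjusted p = 0.0803, 0.137 and 0.109). Pericyte and smooth muscle markers moved with it: their summed level in the same endothelial cells was 1813 to 2182 CPM in controls and 17.95 to 1437 CPM in tumors, 5 of 8 with a lower median in tumors. Among endothelial cells with at most 1 of these markers, Kitl stood at 383, 380.0, 328 and 428 CPM in controls and 254, 154, 339.8, 283 and 203 CPM in tumors. There the groups overlapped and the call was lost (log2 fold change -0.57, SE 0.26, edgeR adjusted p = 0.123). Pericytes and smooth muscle cells had 184, 94.7 and 280.5 CPM in the 3 tumors with enough of them (replicates 2, 3 and 4), and too few were kept from controls. In tumor replicate 2 this was above the endothelial level of the same mouse.

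In control neurons and control microglia Kitl lay around the free RNA level or below it. Neurons held 68.7% of control Kitl UMIs, but at 33.5, 29.9, 35.6 and 31.2 CPM they stood below the free RNA of their libraries (35.4, 39.1, 39.4 and 36.6 CPM). Fusion-allele cells had 16.4, 7.41, 44.7, 11.1 and 18.995 CPM, above the free RNA level only in tumor replicates 3 and 5. Tumor neural progenitors, 503 of 750 from tumor replicate 5, held a Kitl UMI in 12.7% of these cells (3.33% after thinning to 1000 UMIs), with up to 8 in a cell. Tumor ependymal cells held 1 in 16.0% of 50 cells (8.00% after thinning), with up to 6, against 4.22% of tumor microglia (1.46%). The levels of these progenitors and ependymal cells were not set beside free RNA. In microglia Kitl was lower in tumors, by 1.34 on the log2 scale (SE 0.41, edgeR adjusted p = 0.0217), from 37.9, 47.6, 17.4 and 26.8 CPM to 21.0, 7.13, 14.3, 5.95 and 5.88 CPM. The call was lost without control replicate 1 (0.0618) or 2 (0.129). The control levels lay around those of free RNA, and neuron markers in the same microglia fell with Kitl, 10 of 10 having a lower median in tumors (3895 to 4567 CPM summed in controls, 269 to 1412 CPM in tumors). Their part in the result was not tested. With free RNA subtracted Kitl fell below the low-count filter in microglia and was not tested. Endothelial cells were above neurons by 3.14 ± 0.62 and above microglia by 3.56 ± 0.54 in log2(CPM + 10), in 9 of 9 mice each (exact sign-flip permutation p = 0.00391 and adjusted 0.00608 for both).

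Ly6a UMIs came mainly from endothelial cells in both groups. Endothelial cells were 0.506% of control and 4.24% of tumor cells but held 52.1% and 83.9% of all Ly6a UMIs. Their level was 1039, 1429.9, 1225 and 952 CPM in controls and 4415, 959, 6515, 791 and 657 CPM in tumors. Tumor replicates 1 and 3 were above all controls, and replicates 2, 4 and 5 were at the low end of the control range or below it. The difference did not pass the test (log2 fold change 1.26, SE 0.60, edgeR adjusted p = 0.146), though it did without the filter on low counts (1.53, 0.00410). Ly6c1, a neighbouring gene of the same family, had 4684 and 8297 CPM in tumor replicates 1 and 3, 939.9 to 1086 CPM in the other tumors and 1254 to 1846 CPM in controls. Ly6e, a further family member, had 1784 and 2985 CPM in tumor replicates 1 and 3, 327 to 704 CPM in the other tumors and 816 to 1307 CPM in controls. Genes of this family are similar in sequence, and reads shared between them could be assigned to either or dropped, so the Ly6a level is uncertain to that extent.

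A Ly6a UMI was found in 85.9% of control and 82.9% of tumor endothelial cells, with up to 326 UMIs in 1 tumor cell. In neurons a UMI was found in 1.13% and 3.60%, and in microglia in 2.54% and 8.55%. Outside endothelium, among types with at least 20 cells in a group, the highest share was that of tumor T and NK cells, where 15 of 30 (50.0%) had a UMI, 26.7% after thinning to 1000 UMIs, with up to 6 UMIs in a cell. With 6 to 9 such cells per mouse, their level was 592, 260, 69.6 and 243 CPM in tumor replicates 1 to 4, below the free RNA of the same library in replicate 3. The level was 14.3, 7.28, 52.7, 2.94 and 2.53 CPM in tumor neurons and 3.89, 2.58, 3.61 and 2.92 CPM in control neurons. Free RNA of Ly6a moved likewise, from 3.49, 5.99, 7.63 and 6.49 CPM in controls to 46.2, 31.7, 287, 30.2 and 8.30 CPM in tumors, and was highest in tumor replicate 3, which was also highest in neurons. In microglia Ly6a stood at 10.3, 14.1, 5.81 and 4.13 CPM in controls and 55.5, 15.5, 41.8, 16.9 and 5.14 CPM in tumors (log2 fold change 1.88, SE 0.68, edgeR adjusted p = 0.0449). In tumor replicates 2 to 5 the microglial level was below the free RNA of the same library. Neuron markers in tumor microglia stood at 8.42% to 28.3% of their free RNA level. The part of free RNA here was not tested. The call was lost when any 1 control or tumor replicate 1 was left out (adjusted p = 0.0534 to 0.121), and without any of the other 4 tumors Ly6a fell below the low-count filter, as it did with free RNA subtracted. Ly6a entered the microglial test only through the tumor libraries, where it was high, which limits what its p-value can show. Fusion-allele cells had 8.19, 3.18, 7.98, 6.76 and 1.78 CPM, below the free RNA of every tumor library. Endothelial cells were above microglia by 5.85 ± 0.61 and above neurons by 6.39 ± 0.57 in log2(CPM + 10) in 9 of 9 mice (exact sign-flip permutation p = 0.00391, adjusted 0.00608).

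Cd34 rose in tumor endothelium and in tumor microglia. Endothelial cells had 277, 226, 286 and 200.01 CPM in controls and 539, 839, 586, 812 and 475 CPM in tumors, without overlap (log2 fold change 1.52, SE 0.27, edgeR adjusted p = 0.00238). The call was kept when each mouse in turn was left out (adjusted p = 0.00138 to 0.0140) and in cells with at most 1 pericyte or smooth muscle marker (log2 fold change 1.53, adjusted p = 0.00217). Microglia had 37.9, 63.5, 66.9 and 80.5 CPM in controls and 116, 132, 51.5, 128 and 255 CPM in tumors, where replicate 3 lay within the control range (log2 fold change 1.50, SE 0.40, edgeR adjusted p = 0.0110). After subtraction of free RNA the microglial difference was 0.95 and was no longer called (adjusted p = 0.133). A Cd34 UMI was found in 17.6% of control and 35.2% of tumor microglia, and in 7.62% and 3.37% of neurons. In tumors it was also found in 21.6% of 37 fibroblasts and 20.5% of 146 pericytes and smooth muscle cells.

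Control neurons held 74.5% of control Cd34 UMIs, against 78.1% of all UMIs, at 22.2, 22.2, 20.8 and 26.6 CPM beside a free RNA level of 18.0, 16.7, 15.6 and 15.8 CPM. Among neurons the level was 31.6, 29.5, 31.5 and 38.8 CPM in glutamatergic, 20.1, 17.4, 16.6 and 23.4 CPM in GABAergic and 20.8, 17.3, 15.1 and 23.7 CPM in striatal spiny neurons. The 4 glutamatergic values were above all values of the other 2 classes. In tumors the UMIs came from endothelial cells (53.4%) and microglia (26.6%). Fusion-allele cells had 4.10, 4.59, 0, 3.75 and 2.97 CPM, at or below 4.59 CPM in every tumor and below free RNA. Cd34 in endothelial cells exceeded that in microglia by 2.10 ± 0.76 and that in neurons by 3.94 ± 1.03 in log2(CPM + 10), in 9 of 9 mice (exact sign-flip permutation p = 0.00391, adjusted 0.00608).

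**Figure D2:**
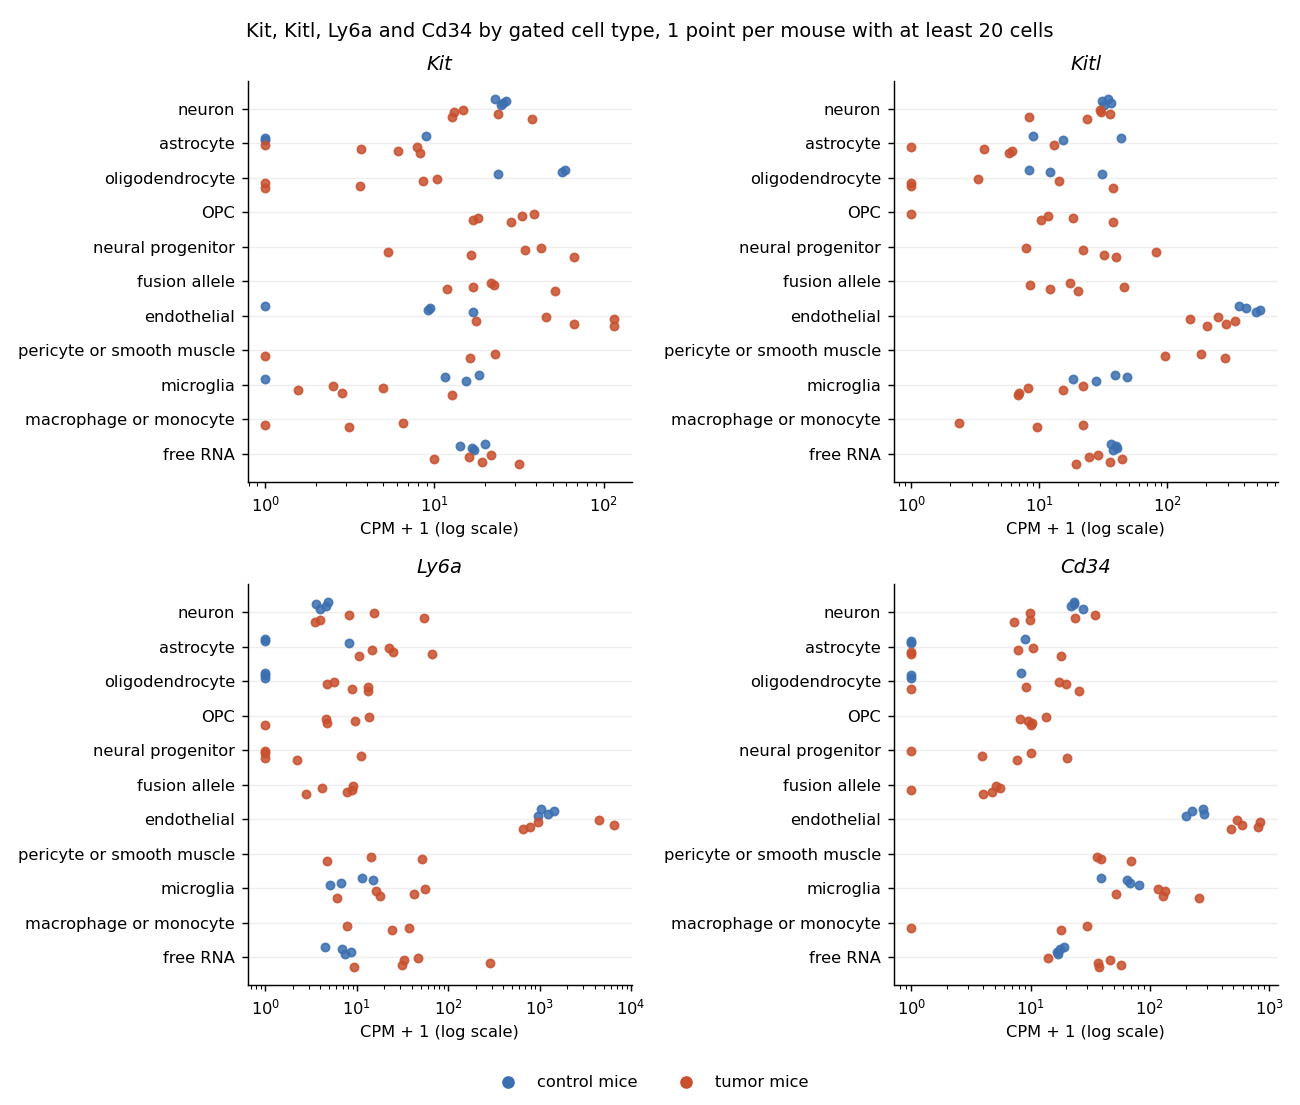
Levels of Kit, Kitl, Ly6a and Cd34 by gated cell type, 1 panel per gene, with cell types on the vertical axis and CPM + 1 on a logarithmic horizontal axis. Each point is 1 mouse with at least 20 cells of the type, in a color for control or tumor. The endothelial points reach the highest values for Kitl, Ly6a and Cd34 in both groups, and the 2 highest Kit points are endothelial cells of tumors.

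Among the 6 members tested in endothelial cells, Kit and Cd34 were called higher, Kitl lower, and Ly6a, Vcam1 and Cd47 not, where 23.4% of 6517 genes were called (12% higher, 11.4% lower). Of these, Kit entered the test only through the tumor libraries. In microglia 5 of 6 tested were called (39.6% of 8507 genes; 18.2% higher, 21.5% lower). Of these 5, Ly6a passed the low-count filter only through the tumor libraries, where it was high. In neurons 0 of 6 were called, where edgeR called 10.2% of 12325 genes (5.32% higher, 4.83% lower). Of these 6, Vcam1 had an unadjusted p of 0.0162 and the other 5 were above 0.05, and DESeq2, run without edgeR's filter on low counts, called Cd48 (log2 fold change 2.06, adjusted p = 0.0178), Ly6a (2.11, 0.0301) and Vcam1 (1.01, 0.0255) higher in tumor neurons. With free RNA subtracted, neuronal Cd47 was called higher in tumors (log2 fold change 1.46, edgeR adjusted p = 0.00464). DESeq2 and the subtraction of free RNA also called more genes in neurons than the main fit did. Cd48 and Ly6a were not among the 6 that edgeR tested. In astrocytes neither of 2 members tested was called, where 20.3% of 3993 genes were, 8.67% higher and 11.6% lower (with no filter on low counts edgeR called Ly6a higher, log2 fold change 3.32, adjusted p = 0.0233), and in oligodendrocytes the 1 tested, Cd47, was not, where 10.1% of 3853 genes were (2.67% higher, 7.45% lower). The neuron marker list was lower in tumor endothelium too, in 10 of 10 genes (2450 to 3792 CPM summed in controls, 124 to 1059 CPM in tumors), and its part in these results was not tested.

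Cd48 was found mainly in leukocytes, of which microglia and macrophages were the most numerous here. Microglia had 10.3, 19.4, 37.8 and 33.0 CPM in controls and 126, 67.0, 102, 144 and 86.7 CPM in tumors, without overlap (log2 fold change 2.43, SE 0.35, edgeR adjusted p = 0.000338). Macrophages and monocytes had 67.4, 236 and 148 CPM in tumor replicates 2, 3 and 4, the libraries with enough of them. Of the 241 cells of this gate over all mice, 160 had just the minimum of 3 markers, and no cluster was named for them, so most cells of this gate lay at its limit. Endothelial cells had no Cd48 UMI in the 4 controls, which allows up to 7.06 CPM over the 4 together, none in 4 tumors, and 8 UMIs in tumor replicate 4. Neurons had 0.285, 0.580, 0.246 and 0.468 CPM in controls and at most 3.01 CPM in tumors. Microglia held 45.3% of control and 73.2% of tumor Cd48 UMIs. They were above neurons by 2.56 ± 0.94 and above endothelial cells by 2.61 ± 0.93 in log2(CPM + 10), in 9 of 9 mice (exact sign-flip permutation p = 0.00391, adjusted 0.00608). Macrophage and monocyte markers moved with it, 6 of 10 having a higher median in tumor microglia (12.35 to 24.1 CPM summed in controls, 29.4 to 454 CPM in tumors), and their part in the microglial differences of Cd48, Ly6a, Cd34 and Vcam1 was not tested.

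Vcam1 was spread over astrocytes, choroid plexus cells, macrophages and, in tumors, microglia. Astrocytes had 86.9, 90.0 and 92.9 CPM in control replicates 2 to 4 and 103, 124, 149.7, 96.6 and 92.1 CPM in tumors (log2 fold change 0.28, SE 0.30, edgeR adjusted p = 0.553). Choroid plexus cells had 94.1 CPM in control replicate 3 and 186 CPM in tumor replicate 1, the 1 mouse of each group with enough of them. A Vcam1 UMI was found in 32.9% of control and 40.6% of tumor choroid plexus cells, beside 29.7% and 26.6% of astrocytes. Microglia had 17.2, 5.29, 17.4 and 14.5 CPM in controls, near the free RNA of 11.97, 15.8, 14.6 and 13.8 CPM. They had 46.5, 201, 24.0, 91.5 and 64.6 CPM in tumors, all above every control, with replicate 2 highest (log2 fold change 3.18, SE 0.70, edgeR adjusted p = 0.00349). The macrophage and monocyte markers given for Cd48 moved in the same microglia, from 12.35 to 24.1 CPM summed in controls to 29.4 to 454 CPM in tumors. Macrophages and monocytes of tumor replicates 2, 3 and 4, from the gate described for Cd48, had 564, 309.8 and 163 CPM. Endothelial Vcam1 stood at 34.6, 50.2, 0 and 0 CPM in controls and 166, 29.7, 214, 46.7 and 24.7 CPM in tumors, where replicates 1 and 3, the same pair as for Ly6a, were highest. That difference did not pass the test (log2 fold change 2.38, SE 0.96, edgeR adjusted p = 0.0894), though it did without the filter on low counts (2.63, 0.000429). Fusion-allele cells had 24.6, 31.6, 27.1, 23.2 and 27.3 CPM, around the free RNA level of 24.5, 26.5, 27.9, 29.1 and 21.6 CPM. Endothelial cells were above microglia of the same mouse in 4 of 9 mice, 2 of each group, and the mean difference did not pass the test (-0.01 ± 1.80 in log2(CPM + 10), exact sign-flip permutation p = 0.992). Endothelial cells were higher than neurons in 7 of 9 mice (1.27 ± 1.58), which did not hold after adjustment (exact sign-flip permutation p = 0.0430, adjusted 0.0547).

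Flt3 UMIs came mainly from neurons, more so in controls than in tumors. Control neurons had 12.6, 12.7, 18.9 and 16.1 CPM, above the free RNA of 0.998, 3.15, 1.59 and 2.85 CPM, and held 94.5% of all Flt3 UMIs. GABAergic neurons had 15.3, 15.6, 26.7 and 19.4 CPM, glutamatergic neurons 6.48, 8.28, 14.7 and 11.4 CPM and striatal spiny neurons 10.2, 10.2, 9.68 and 16.0 CPM. In every control the GABAergic level was the highest of the 3. Tumor neurons had 12.1, 13.3, 9.04, 0 and 10.1 CPM, from 47 of the 81 Flt3 UMIs of tumors (58.0%, and 0% to 88.0% by mouse). Their level did not differ detectably from that of control neurons (log2 fold change -0.78, SE 0.43, edgeR adjusted p = 0.273). Whether this differs from the difference over all cells was not tested. Fusion-allele cells had 8 Flt3 UMIs in 5297 cells. Dendritic cells, a known source in blood, were gated only 1 time in each group, so their Flt3 was not compared.

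Cd47, the ligand of SIRPα that restrains phagocytosis, was found in every cell type. It stood at 185, 167, 159 and 166 CPM in control neurons, 242, 276, 188 and 232 CPM in control endothelium and 299, 267 and 286 CPM in the oligodendrocytes of control replicates 2 to 4. Microglia had 227, 243, 247 and 258 CPM in controls and 168, 175, 184, 104 and 109 CPM in tumors, every tumor below every control, but the difference relative to other genes did not pass the test (log2 fold change -0.34, SE 0.21, edgeR adjusted p = 0.217). Fusion-allele cells had 131, 67.8, 101, 89.6 and 91.0 CPM, lower than the endothelial cells of the same tumor in 5 of 5 mice. Endothelial cells were above neurons by 0.32 ± 0.33 in log2(CPM + 10), in 7 of 9 mice (exact sign-flip permutation p = 0.0273, adjusted 0.0383). This did not hold without control replicates 1, 2 or 4 or tumor replicates 1, 4 or 5 (adjusted p = 0.0656 to 0.0766). Neurons were below microglia of the same mouse in 4 of 4 controls (-0.28 to -0.61) and in tumor replicate 1 (-0.02), and above them in the other 4 tumors (0.21 to 0.62). The mean over 9 mice was -0.06 ± 0.47 (exact sign-flip permutation p = 0.734, adjusted 0.791).

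Spn had 31 UMIs in control and 66 UMIs in tumor cells. T and NK cells held 11 and 21 of them, at 158 CPM in 18 control cells and 161 CPM in 30 tumor cells pooled over mice. These levels rest on 1 mouse per group, since control replicate 2 held 10 of the 11 UMIs and tumor replicate 3 held 16 of the 21. Without them the levels were 49.9 CPM in controls, from 1 UMI, and 57.4 CPM in tumors, from 5 UMIs. Macrophages and monocytes of tumor replicate 3 had 12 UMIs, or 63.0 CPM. Microglia had no Spn UMI in controls, which allows up to 1.78 CPM, and 6 UMIs in tumors. Intervals and limits of this kind cover counting error only.

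**Figure D3:**
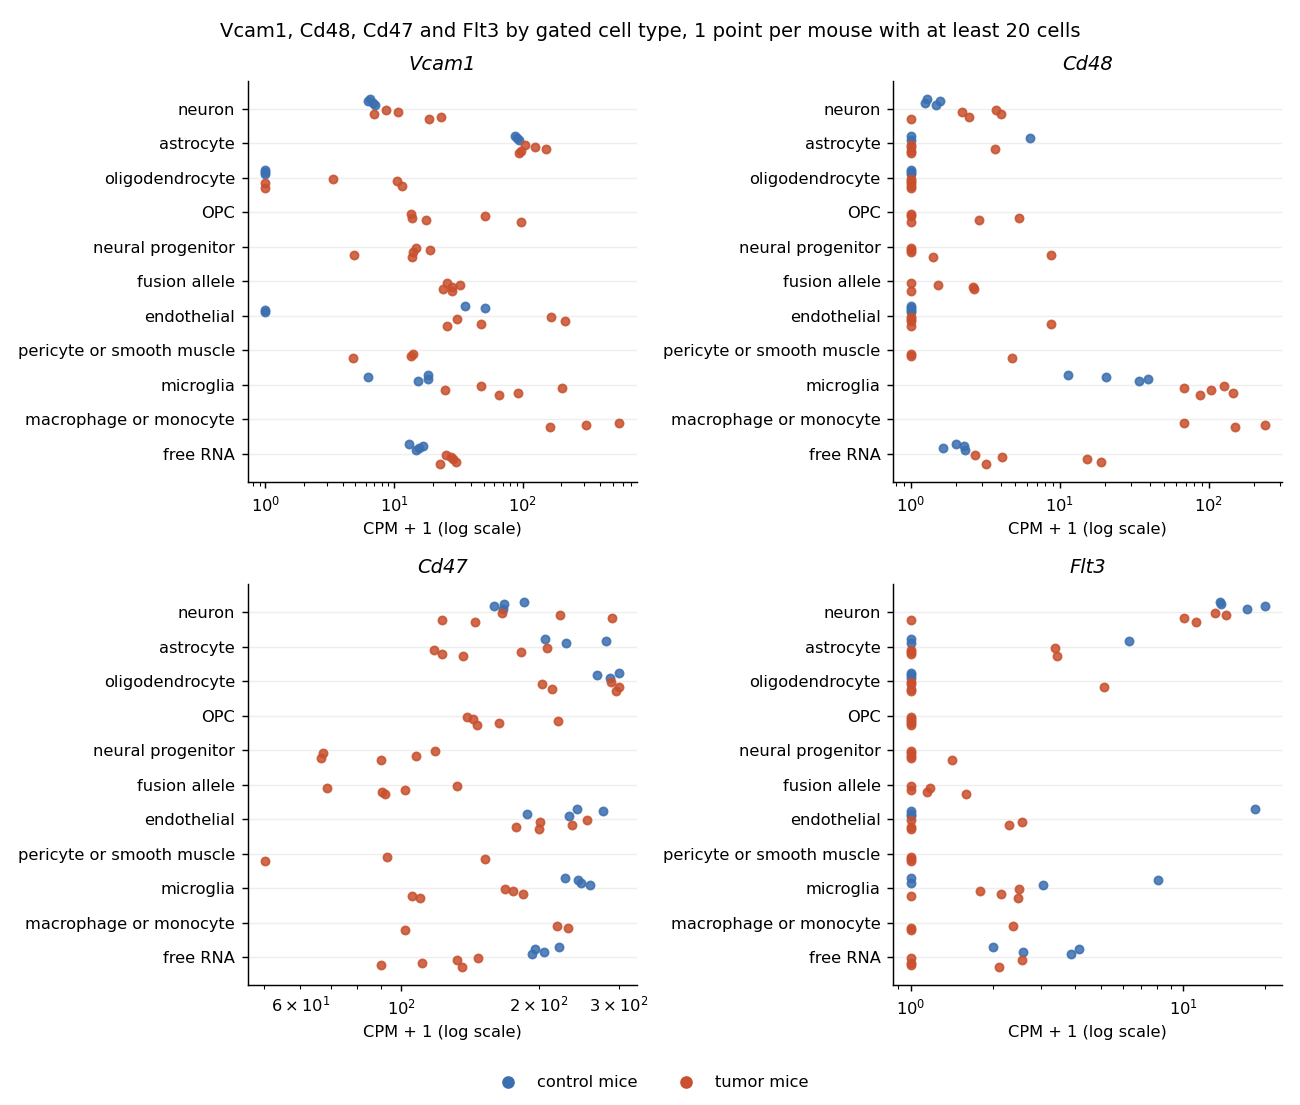
Levels of Vcam1, Cd48, Cd47 and Flt3 by gated cell type, with cell types on the vertical axis, CPM + 1 on a logarithmic horizontal axis and 1 point per mouse with at least 20 cells of the type. Cd48 is highest in microglia and in macrophages or monocytes, Flt3 in neurons apart from 1 control endothelial point, and Cd47 is present in every type.

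**Figure D4:**
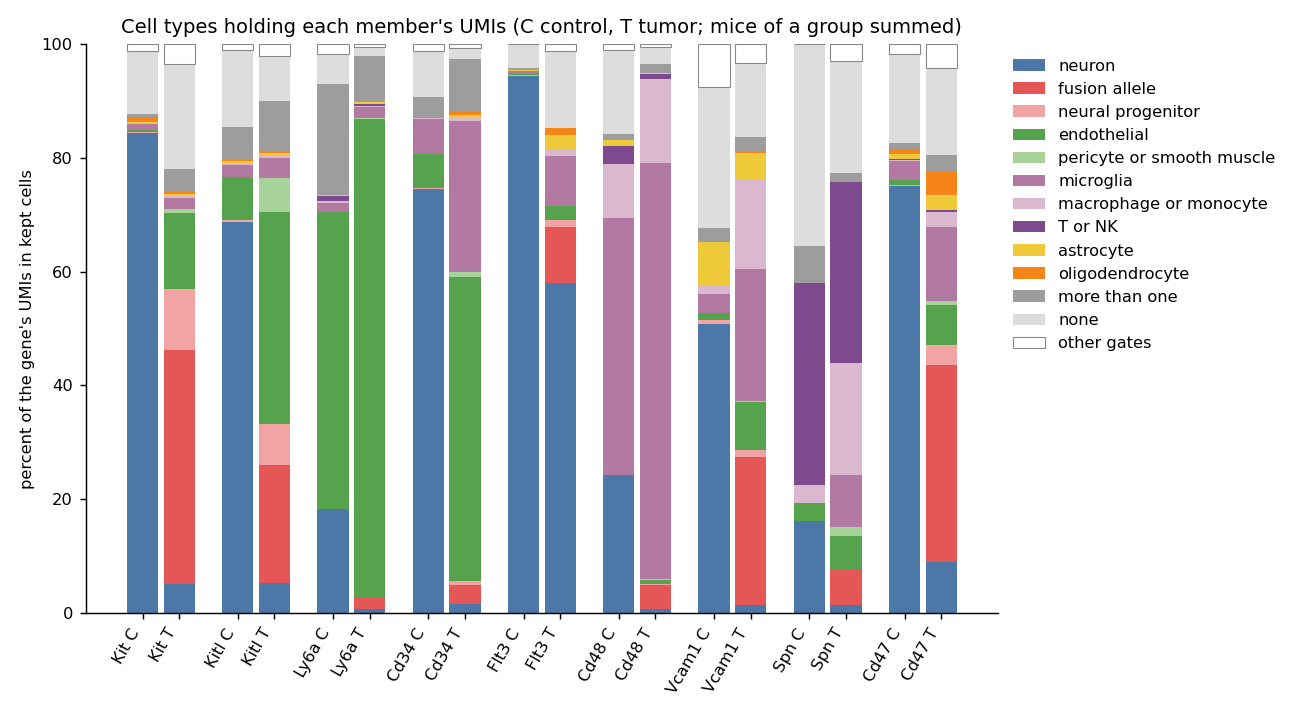
Stacked bars of the share of each member's UMIs held by each gated cell type, in percent of all UMIs of that gene in kept cells, with the mice of a group summed (C, control; T, tumor) and cells of other gates left white. The main holder moves from neurons in controls to endothelial cells, microglia and fusion-allele cells in tumors for Kit, Kitl, Cd34, Vcam1 and Cd47. Ly6a is endothelial and Cd48 microglial in both. For comparison, neurons held 78.1% of all UMIs in controls and 5.74% in tumors, and fusion-allele cells 46.2% in tumors. Whether the moves go beyond these shares was not tested.

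Cells with UMIs of Kit and of Ly6a, the transcripts of the c-Kit and Sca-1 pair that defines HSPCs by flow cytometry, were mostly not blood cells. In controls they were 28 cells, 16 of them neurons, 4 endothelial and 4 without a gate. In tumors they were 119 cells, 79 of them endothelial (66.4%), 15 carrying the fusion allele and 15 passing more than one gate. Ly6a lay near or below free RNA in control neurons and below it in fusion-allele cells. Free RNA of Ly6a was also higher in every tumor than in every control. The part of free RNA in these pairs and in the group difference below was not tested. Of the 79 endothelial cells, 2 also had a UMI of Ptprc (CD45) and 20 had at least 3 of 14 other HSPC markers, a list that includes Mecom, Gata2 and Procr, which endothelium also expresses. Of all kept cells, those with both transcripts were 0.0508%, 0.199%, 0.201% and 0.150% in controls and 0.465%, 1.18%, 0.507%, 0.899% and 0.495% in tumors. Each tumor was above each control. The mean was 0.150% ± 0.070 (SD, n = 4) in controls and 0.709% ± 0.318 (SD, n = 5) in tumors (two-sided exact permutation p = 0.00794, the smallest that 4 against 5 mice allow, 0.0159 after adjustment over 2 populations). Thinned to 1000 UMIs, the shares were 0.0230% and 0.148% and the difference no longer passed after adjustment (exact permutation p = 0.0397, adjusted 0.0794). Nor did it pass when any 1 mouse was left out (exact permutation adjusted p = 0.0571 to 0.143). A single p could not go below 0.0179 (1 control left out) or 0.0286 (1 tumor left out) there. Without any 1 tumor the exact permutation p stood at that smallest value. Adjusted together with the leukocyte p it could not have passed, so these cases do not show a weaker difference.

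Of endothelial cells pooled over mice, 4.04% in controls (95% Clopper-Pearson interval 1.11% to 10.0%) and 11.8% in tumors (9.48% to 14.5%) had both transcripts. These intervals treat the pooled cells as independent, and the share of every tumor mouse lay outside the tumor interval. The group difference within endothelium was not tested. By mouse the tumor shares were 7.19%, 17.2%, 3.01%, 25.4% and 8.74%, so replicates 2 and 4 were highest, replicate 5 was just above the controls, and replicates 1 and 3 lay within their range (from 0 of 23 cells, which allows up to 13.04% by a limit of 3 counts and 14.8% by the Clopper-Pearson interval, to 8.33%). Among cells gated on the leukocyte genes Ptprc, Cd53, Laptm5, Coro1a and Cytip, which are fewer than the microglia of every mouse and so a subset of the leukocytes, the pair was found in 1 of 61 cells of control replicate 4, in 2 of 408 cells of tumor replicate 2 and in no cell of the other 7 mice (33 to 240 such cells each). Of all cells gated as microglia, 2 of 1708 in tumors and none of 511 in controls held it. In mice with no such leukocyte a limit of 3 counts allows a share of up to 1.25% (240 cells) to 9.09% (33 cells), and the upper end of the Clopper-Pearson interval is 1.53% and 10.6%, so the exact permutation test of the leukocyte shares (p = 0.722, adjusted 0.722) does not show that the groups were alike. Just 1 kept cell, from a tumor, passed the gate on the other HSPC genes, and it did not hold both Kit and Ly6a.

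Kit with Cd34 was found in 113 of 668 tumor endothelial cells (16.9%), 60.1% of all such tumor cells, and in 4 of 99 control ones. By mouse these were 7.19%, 29.1%, 3.01%, 28.6% and 22.3% of tumor endothelial cells. In controls 66 neurons (0.438% of neurons) held this pair. Among blood cells it was found in 11 of 1708 tumor and 3 of 511 control microglia, in 2 of 217 tumor macrophages and monocytes and in 1 of 284 control erythroid cells. In the leukocyte gate it was found in 5 of 408 cells of tumor replicate 2, 1 of 195 of tumor replicate 5, 1 of 61 of control replicate 4 and none in the other 6 mice. Flt3 with Kit, which in marrow would mark multipotent progenitors, was found in 50 control cells, all of them neurons, and in 4 tumor cells, 2 of them neurons and 2 leukocytes, 1 in tumor replicate 2 and 1 in tumor replicate 4, that passed no gate of a type. Both leukocytes held Ptprc and no UMI of the lineage markers Cd3e, Cd79a and Itgam. Of control neurons, 6.67% held a UMI of Kit, 4.96% one of Flt3 and 0.332% both. Of tumor endothelial cells, 18.4% held a UMI of Kit, 82.9% one of Ly6a and 11.8% both. Whether 2 transcripts met in a cell more often than their separate shares give was not tested.

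**Figure D5:**
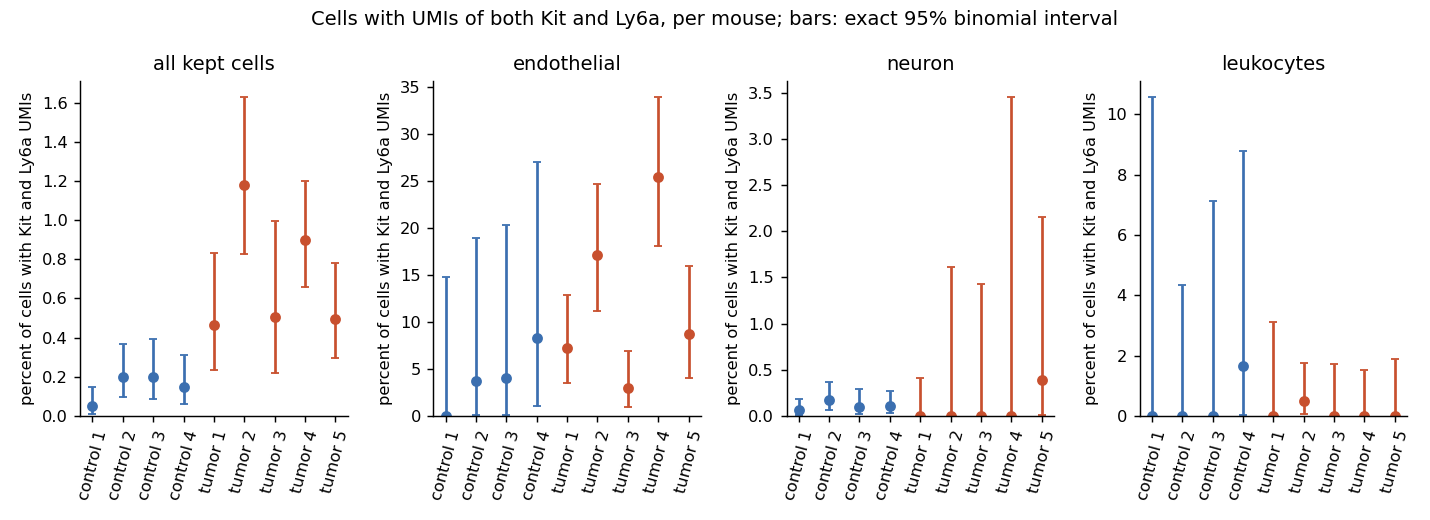
Cells with UMIs of Kit and Ly6a, as a percentage of all kept cells, of endothelial cells, of neurons and of leukocytes, with 1 point per mouse and its 95% Clopper-Pearson interval. The vertical scales differ between panels, and the 5 tumors lie above the 4 controls only in the panel of all kept cells.

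Other genes of the same pathways were read from lists. Among 16 partners of the members found in the files (integrins, selectins, SIRPα and adaptors of Kit signalling), 12 were tested over all cells and 8 were called where 61.7% of all genes were, all higher in tumors, with a median log2 fold change of 1.54 against 0.04 for all genes. Itgb1, the beta chain of the Vcam1 receptor VLA-4, rose by 2.32 on the log2 scale (51.5 to 54.3 CPM in controls, 107 to 294 CPM in tumors, edgeR adjusted p = 0.000502). Cd244a, the Cd48 receptor, rose by 4.42 (0.140 to 0.317 CPM against 1.25 to 7.18 CPM, 0.000561). Within types only 1 partner each was called in microglia (Cd244a, log2 fold change 4.33, edgeR adjusted p = 0.00919, of 8 tested) and endothelium (Itgb1, 1.18, 0.0127, of 6 tested), where 39.6% and 23.4% of all genes were.

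Of 22 other niche factors 19 were tested over all cells, 13 were called higher and 1 lower, where 61.7% of all genes were called, with a median log2 fold change of 2.59. Fn1 (fibronectin) rose from 12.01 to 19.6 CPM in controls to 84.9 to 196 CPM in tumors (log2 fold change 3.34, edgeR adjusted p = 7.70e-05), and Cxcr4 (the receptor of Cxcl12) from 0.254 to 0.387 CPM to 4.15 to 12.5 CPM (4.63, 9.28e-05). In endothelium 5 of 13 were called, where 23.4% of all genes were, with a median of 0.50 against 0.06 for all genes. There Esam (log2 fold change 1.81, edgeR adjusted p = 0.000794), Icam1 (3.40, 0.00163), Fn1 (1.70, 0.000711) and Tgfb1 (1.24, 0.0388) rose and Ptn (pleiotrophin) fell by 1.14 (0.00610). In microglia 6 of 9 were called higher, Spp1 (osteopontin) by 5.20 (edgeR adjusted p = 0.00338) and Icam1 by 1.97 (0.00128) among them, and 2 lower, where 39.6% of all genes were called. In neurons 3 of 11 were called, all higher, where 10.2% of all genes were. In astrocytes 2 of 7 were called higher (20.3% of all genes called), and in oligodendrocytes 1 of 3 lower (10.1%).

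Of 20 other HSPC genes 15 were tested over all cells, 9 were called higher and 1 lower, where 61.7% of all genes were called (median log2 fold change 1.74). Gata2 rose by 4.11 (edgeR adjusted p = 0.00173) and pooled over mice stood at 33.4 CPM in fusion-allele cells and 101 CPM in tumor endothelium. Mecom rose by 2.46 (0.00523) and stood at 203 CPM in control and 156 CPM in tumor endothelium, and below 3 CPM in neurons and microglia of either group. Hlf, a transcription factor of stem cells that is also a neuronal and astrocytic gene, fell by 1.99 over all cells (edgeR adjusted p = 0.000194). It also fell in microglia by 3.29 (4.32e-05) and in endothelium by 3.16 (0.000699), where neuron markers were lower too. Within endothelium Hlf was the 1 gene called of 7 tested, where 23.4% of all genes were. Of 11 Ly6 family genes 8 were tested over all cells and 5 called, where 61.7% of all genes were. Ly6a, Ly6c1 (4.36, edgeR adjusted p = 0.00580) and Ly6e (1.99, 0.00805) rose, and the neuronal members Lynx1 and Ly6h fell by 1.75 (0.00487) and 1.55 (0.0485).

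The genes whose level followed each member most closely were sought over 19 sums of cells (cell type by group), as Pearson r of log2(CPM + 10) with no test, since the sums share libraries and free RNA. Ly6a went with Ly6c1 (r = 0.99), Sox18 (0.98) and Adgrl4 (0.98), and Cd34 with Arap3 (0.96), Prkch (0.92) and Acvrl1 (0.92). Kitl went with Filip1 (0.92), Foxc1 (0.92) and Net1 (0.90). Kit went with Ctps (0.88), Ercc1 (0.75) and Tceal9 (0.75). Cd48 went with Ncf4, Lrrc25 and Rgs1 (0.99 each) and Vcam1 with Dab2 (0.85), Pnp (0.84) and Apoe (0.82). Flt3 went with Gm45159 (0.97), A230006K03Rik (0.96) and Rad51ap2 (0.96), Cd47 with Tmf1 (0.88), Cept1 (0.88) and Tbc1d5 (0.87), and Spn with Cd163 (0.90), Chil3 (0.88) and Fcna (0.87), although Spn itself never exceeded 9.02 CPM in these sums.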

How the data were processed

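UMI counts per barcode and gene were deposited by the authors, one matrix per library, not normalized. They came from 10x 5′ libraries aligned to mm10 with Cell Ranger (6.1.2 in the matrix header, 7 in the submitters' processing notes). From these, cells were taken among the 10000 largest barcodes of each library, with 200 to 6000 genes, by a Gaussian mixture on mitochondrial share and gene number. Scrublet doublets (0.8% per 1000 cells) were removed. The gate limits were set after the marker distributions were seen, and the members and gene lists were chosen with earlier results of these data known. Counts were summed per mouse and gate. They were tested with edgeR 4.0.16 (R 4.3.3, TMM, filterByExpr, quasi-likelihood, adjusted over all genes tested, threshold 0.05). Pairs of gates were compared by exact sign-flip permutation of log2(CPM + 10). The 9 members are always named. Of each list the genes past the threshold could be named, at most 8 by smallest p, and per member the 3 genes of highest r with at least 50 CPM. DESeq2 1.42.0, scanpy 1.11.5, scipy 1.17.1 and scikit-learn 1.9.0 served the alternatives and the clustering. Subtraction of free RNA within gates, the limit on pericyte markers and the Spn level without 1 mouse per group were alternatives chosen after seeing the data. The barcode list of control replicate 4 (80865 names) did not match its matrix, so its barcodes and added sequences were not used. The labels do not tell whether samples of a group were prepared together, and p-values cover the spread between these mice only.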

Additional observations from a re-analysis of the deposited data

Results flagged for a closer look

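In 7 of 79 groups of mice, 1 mouse lay apart from the rest of its group by Dixon's test, which chance does in about 1 in 20 groups. In 4 of the 7 all other mice were at 0, where any count is set apart, so that rate does not apply to them. Kit in fusion-allele cells stood at 50.7 CPM (256 UMIs) in tumor replicate 5 and at 10.9 to 21.5 CPM in the other 4 tumors. Ly6a in neurons stood at 52.7 CPM (35 UMIs) in tumor replicate 3 and at 2.53 to 14.3 CPM in the others. Spn over all kept cells stood at 5.10 CPM (35 UMIs) in the same tumor against 0.249 to 1.02 CPM in the others. Cd48 in endothelial cells was found in tumor replicate 4 alone among tumors, at 7.78 CPM (8 UMIs). The remaining 3 rested on 1 UMI each, with 0 in the other mice of the group. They were Spn in neurons of tumor replicate 1 (0.550 CPM), Flt3 in endothelial cells of control replicate 1 (17.3 CPM) and Spn in endothelial cells of control replicate 2 (8.36 CPM).

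Kit differed in opposite directions in 2 cell types. Endothelial cells averaged 71.2 CPM in tumors and 8.13 CPM in controls, whereas oligodendrocytes averaged 3.91 CPM in tumors and 45.6 CPM in controls, without overlap of mice in either type. The oligodendrocyte values rest on 16 control and 9 tumor UMIs and leave out control replicate 1, which had 16 oligodendrocytes and no Kit UMI. Neuron markers moved in the same oligodendrocytes, from 2940 to 3844 CPM summed in controls to 448 to 1034 CPM in tumors. The difference between the cell types was not tested.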

How the results depend on the processing

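Control cells numbered 99 in endothelium, 96 in oligodendrocytes and 118 in astrocytes, which limits these comparisons. Over all kept cells the same 5 members were called under every alternative, and Cd47 alone turned, to 0.84 (edgeR adjusted p = 0.00712), with free RNA subtracted. Over all kept cells the median log2 fold change of all genes was 0.04, but -0.10 with DESeq2, -0.15 without a filter on low counts and 0.24 with free RNA subtracted. In neurons 0 members and 1251 genes were called. With DESeq2 these became 3 and 3996, with Leiden clusters 2 and 3279, and with free RNA subtracted 1 and 4355. Each of these settings called more genes as well as more members, and the member counts were not compared with the share of all genes. Genes numbered 1958 without a filter on low counts, and leaving out 1 mouse gave 0 to 1 members and 427 to 2585 genes. In microglia 5 members and 3373 genes became 2 and 1977 with free RNA subtracted, and leaving out 1 mouse gave 3 to 4 members. In endothelium 3 members and 1522 genes became 1 and 955 among cells with at most 1 pericyte or smooth muscle marker. Genes numbered 2450 there without a filter, and leaving out 1 mouse gave 1 to 3 members. Without tumor replicates 1, 2, 4 or 5 endothelial Kit fell below the low-count filter. Endothelial Kitl was also lost with DESeq2 (adjusted p = 0.0540) and without a filter (0.239). In astrocytes 0 members and 810 genes became 1 and 1333 without a filter, and leaving out 1 mouse gave 227 to 895 genes. In oligodendrocytes 0 members and 390 genes became 1 member with DESeq2, 1 and 1009 without a filter, and 182 genes with a stricter gate, and leaving out 1 mouse gave 44 to 723 genes. The difference in the share of cells with Kit and Ly6a, 0.559 percentage points, was 0.441 to 0.620 when 1 mouse was left out. Its exact permutation adjusted p was then 0.0571 to 0.143 and no longer passed in any of the 9 cases, and a single p could not go below 0.0179 or 0.0286 there. Without any 1 tumor it stood at the smallest p, which could not pass once adjusted with the leukocyte p. Thinned to 1000 UMIs the difference was 0.125 (exact permutation adjusted p = 0.0794). The cause of these shifts was not tested.

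Control and tumor mice share only a replicate number. The deviations of same-numbered mice correlated at r = 0.125, 0.066, -0.003 and 0.038 over 10881 genes, and of 4 controls only replicate 1 correlated best with its own number. With the replicate block, 7 genes were called in neurons and 108 in oligodendrocytes. In the same fit Kitl was not called in microglia (edgeR adjusted p = 0.0629) or endothelium (0.0598), and Vcam1 was called in endothelium (0.0425). Fits for astrocytes with Leiden clusters, a 10% mitochondrial limit or at least 50 cells per mouse could not be made, nor those for oligodendrocytes with Leiden clusters or 50 cells, nor those for endothelium with the 10% limit or 50 cells, since too few mice had enough cells.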
